A study of Danio rerio with 72 samples.

Results

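The genes described here are those of the BMP and TGF-beta pathway on a zebrafish expression array, a signalling system that no group of the study was designed to alter. Members were all probe sets with 1 annotated gene symbol whose name begins as those of the BMP and GDF ligands, TGF-beta ligands and receptors, activin receptors, inhibin beta subunits, noggins, chordin, follistatins, SMADs 1 to 9 or ID factors 1 to 4 do. The rule used names alone and no measured value. It found 59 probe sets for 46 genes, among 15502 probe sets and 8793 named genes on the array. Of these, 38 probe sets for 33 genes lay above their array's median on at least 3 arrays and were tested, with 10126 probe sets tested in all. The other 21 probe sets were not tested, which left 13 genes without a tested probe set: bmp6, bmp7a, bmp15, gdf6b, gdf7, tgfb1a, acvr1ba, nog2, nog3, fsta, smad1, id2b and fstl5.

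BMP and other TGF-beta family ligands bind a complex of type I and type II serine/threonine kinase receptors, which phosphorylates receptor SMADs that enter the nucleus with a shared partner. Smad1 and Smad5 carry BMP signals, and Smad2 and Smad3 carry TGF-beta, activin and Nodal signals. Secreted antagonists such as noggin and chordin hold BMP ligands away from their receptors, inhibitory SMADs damp the signal inside the cell, and id genes are well-known BMP targets. In the zebrafish embryo BMP signalling patterns the ventral side of the body and takes part in forming the tail.

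Gene expression was measured on 72 arrays, each hybridised with amplified RNA from posterior presomitic mesoderm (PSM), the unsegmented mesoderm at the tail end of the embryo from which somites form, dissected by hand at the 12-somite stage. All embryos were raised at 24 °C. Wild-type AB embryos received retinoic acid (RA) for 1.5 h (4 arrays) or 3 h (3 arrays), or DAPT, which blocks the gamma-secretase that releases active Notch, for 1.5 h (3 arrays) or 3 h (2 arrays). Each of these 4 groups had its own DMSO control of 4 arrays. The other groups held 4 arrays each and were heat shocked at 37 °C. Heat shock lasted 30 min for Tg(hsp701;dnfgfr1-EGFP) embryos, which make a dominant-negative Fgf receptor, and for wild-type AB embryos, both dissected 30 min or 1 h later. It also lasted 30 min for Tg(hsp:70:DeltaTcF-gfp), Tg(hsp:70:dkk1-gfp) and Tg(hsp:70:wnt8a-gfp) embryos, dissected 1 h later, where Tcf is the nuclear effector of Wnt, dkk1 a secreted Wnt inhibitor and wnt8a a Wnt ligand. It lasted 1 h for Tg(hsp70;gal4VP16) embryos and for embryos of Tg(UAS:myc-notch1a-intra) crossed to that line, which make the intracellular domain of Notch, dissected 45 min or 90 min later. The heat-shock promoter is not restricted to a tissue and the controls were heat shocked too, and the 4 wild-type arrays at 1 h are the control of the dnfgfr1, DeltaTcf, dkk1 and wnt8a groups alike. The labels call the arrays biological replicates and do not say whether they came from separate clutches, so p-values measure the spread between these arrays. In the main fit that spread within groups was pooled over all 19 groups. Differences in bulk tissue can come from fewer cells of a type or from less RNA per cell, which cannot be told apart here.

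Of 14 listed PSM markers 10 were tested, and 8 of them lay above the array median on all 72 arrays; msgn1, a regulator of PSM, had group means from 11.99 to 12.74. The transcript of dkk1b reached 12.81 ± 0.09 (SD, n = 4) in the libraries labelled DeltaTcf and 13.05 ± 0.08 in the dkk1 group, against 5.44 ± 0.51 in wild type and 5.53 ± 0.22 in the wnt8a group. The libraries labelled DeltaTcf thus went against their label in this transcript, and every direction drawn from them below carries that limit. In the notch1a-intra group at 45 min, notch1a stood at 11.64 and 11.83 on arrays 1 and 3 but at 8.0 and 8.29 on arrays 2 and 4, near the gal4 range of 7.2 to 8.46. Levels throughout are log2 of the signal plus 16, quantile normalised; a difference is on that scale, which understates the change of dim genes, and the level of one probe set says nothing about that of another.

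Over the 13 comparisons between groups, 18 of the 33 tested genes were called at an adjusted p under 0.05 at least once and 15 never. They gave 48 calls on 19 of the 38 member probe sets. Called at least once were thus 50.0% of the member probe sets, beside 52.2% of all 10126 tested. Of the 48 calls, 8 fell on tgfbi and fstl1b, which matched the rule by name and are described apart. tgfbi was called in 6 comparisons, acvr2ba (probe set 1) and smad7 in 5 each, acvr1l in 4, and bmpr1ab, id3, inhbb and smad5 in 3 each. How often all tested probe sets were called that many times was not counted. The range of a probe set's 19 group means had a median of 1.52 over the 38 members, from 0.72 to 2.8, beside 1.26 over all probe sets tested.

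**Figure D1:**
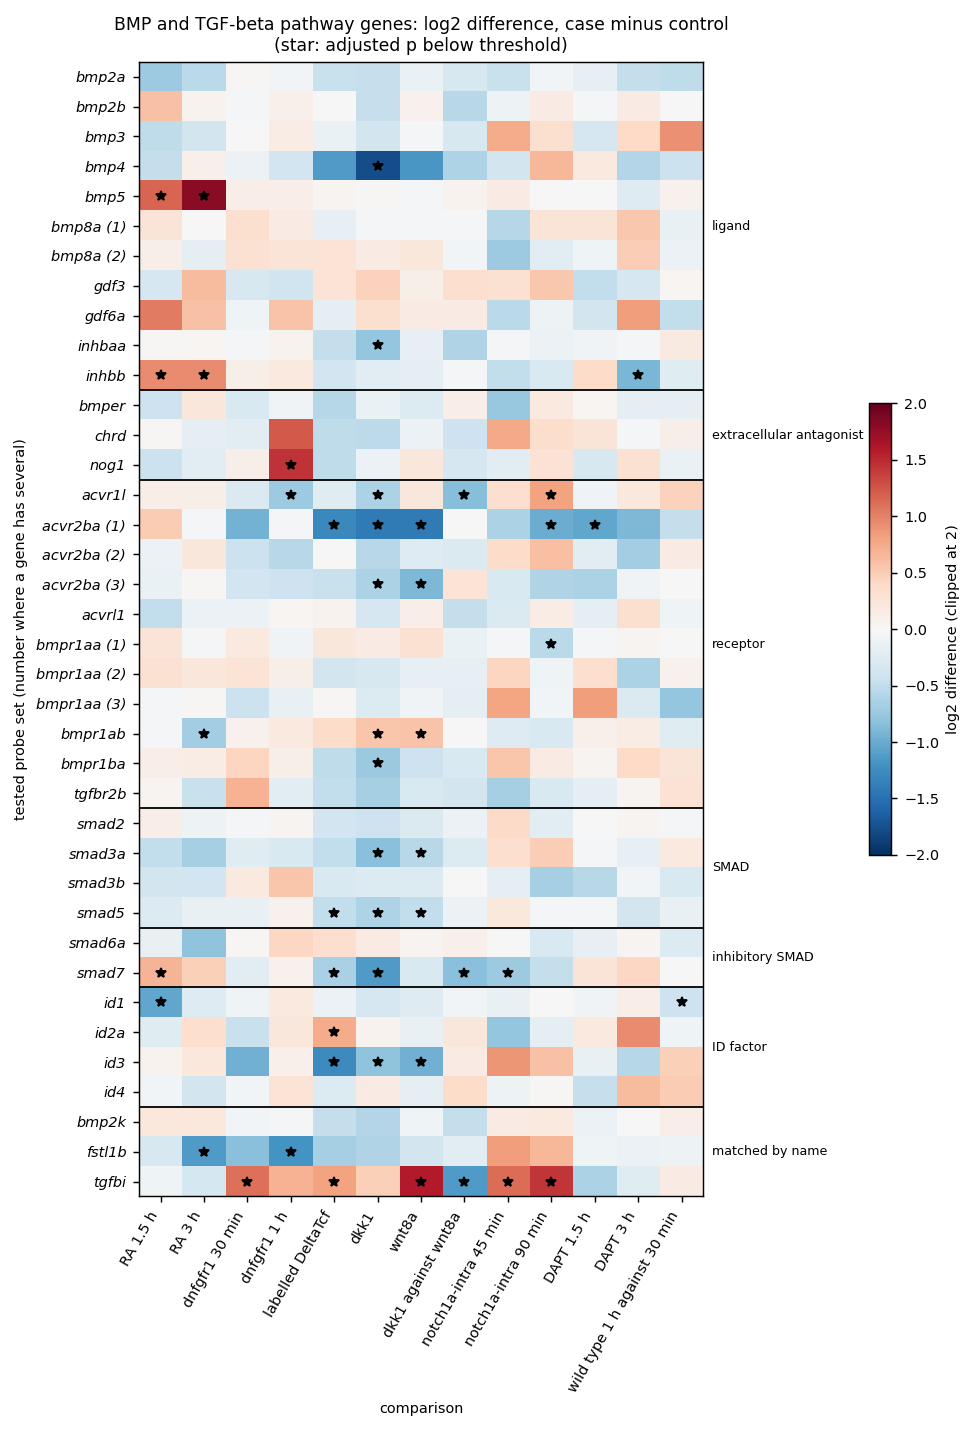
Log2 difference (colour, clipped at 2) of each of the 38 tested member probe sets (vertical axis, by role) in 13 comparisons (horizontal axis), with a star where the adjusted p was below 0.05. The dkk1 column holds 11 stars, 10 of them on lower values, and the tgfbi row holds 6.

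With RA for 1.5 h, 4 of the 38 member probe sets were called, 3 higher and 1 lower, which is 10.5% beside 4.34% of all probe sets. With RA for 3 h the count was 4, with 2 higher and 2 lower, also 10.5% beside 3.68% of all. The deposited scaling, without quantile normalisation, made these 3 higher and 4 lower, and centring each array on its median 3 and 2. At each RA time 1 of the 4 calls was bmp5, which entered the test only through its RA arrays and had to differ there. The dominant-negative Fgf receptor gave 1 higher call at 30 min, that of tgfbi, 2.63% beside 3.0%. At 1 h it gave 3 calls, 1 higher and 2 lower, 7.89% beside 3.42%. After centring, the 30 min count was 1 higher and 1 lower, and with the deposited scaling the 1 h count was 2 higher and 2 lower.

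The 3 Wnt groups changed a large share of the whole array, and the members' counts have to be read against it. In the libraries labelled DeltaTcf 6 members were called, 15.8% beside 20.6% of all, 2 higher and 4 lower, with 10.6% of all probe sets lower. Centring each array on its median made this 1 higher and 5 lower. In the dkk1 group 11 were called, 28.9% beside 24.6%, and 10 of these were lower, with 12.1% of all lower. In the wnt8a group 7 were called, 18.4% beside 16.2%, 2 higher and 5 lower, with 8.39% of all lower. The median member difference was -0.35 with dkk1, -0.33 with the DeltaTcf label and -0.16 with wnt8a, beside -0.01, 0.0 and 0.01 over all probe sets. Below 0 lay 28, 27 and 27 of the 38 members. These 3 comparisons share their wild-type arrays. Between dkk1 and wnt8a directly, with no wild type involved, 3 members were called, all lower with dkk1, 7.89% beside 3.28%. They were acvr1l, smad7 and tgfbi, and no other member was called there.

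Active Notch gave 2 member calls at 45 min, 5.26% beside 4.09%, and 4 at 90 min, 10.5% beside 6.87%, with 2 higher and 2 lower. At 90 min these were 3 and 2 with the deposited scaling and 2 and 1 after centring. At 45 min 1 was higher and 1 lower. DAPT gave 1 lower call at 1.5 h, 2.63% beside 4.09%, and 1 lower call at 3 h, 2.63% beside 5.35%. Wild-type embryos at 1 h against 30 min after heat shock gave 1 lower call, 2.63% beside 4.37%. Among the 4 differences of an effect between times, RA gave 1 call (0.721% of all probe sets) and DAPT 1 (3.96% of all). The dnfgfr1 difference gave none in limma (0.375% of all), with 4 members at an unadjusted p under 0.05, and the Notch difference none (0.691% of all), with 5. The share of all probe sets at such an unadjusted p was not counted.

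**Figure D2:**
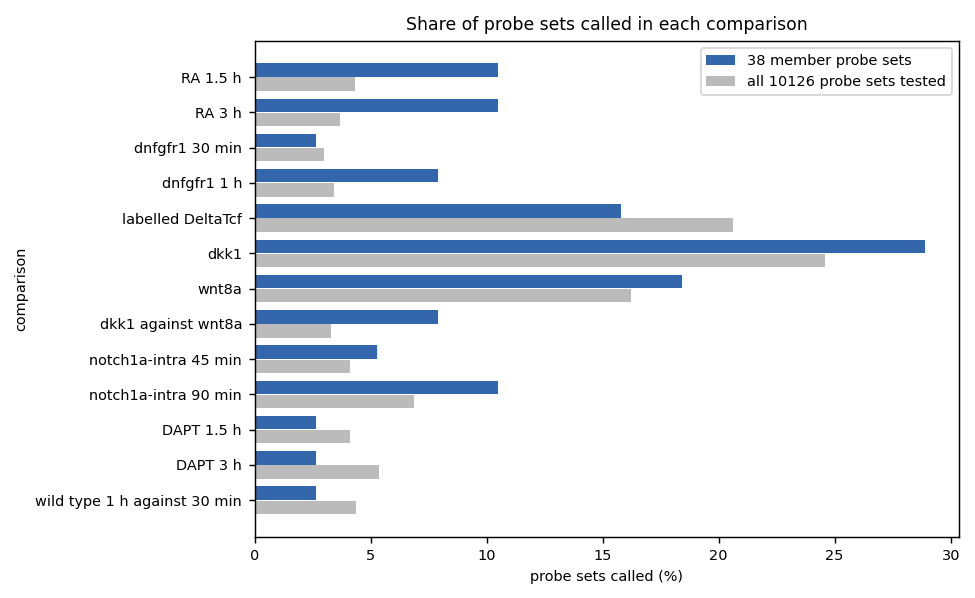
Percent of probe sets called (horizontal axis) in each comparison (vertical axis) for the 38 members (blue) and for all 10126 probe sets tested (grey). The share of members exceeds that of all probe sets in 8 of the 13 comparisons, and both are highest with dkk1, at 28.9% and 24.6%. The members' share at both RA times includes bmp5, which entered the test only through its RA arrays.

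Among the ligands, 10 of 16 genes were tested and 4 were called, beside 52.2% of all probe sets called at least once. bmp5, a BMP ligand, stood at 4.3, 4.99, 4.47 and 4.4 in the DMSO arrays at 1.5 h and at 5.91, 5.68, 5.83 and 5.42 with RA. At 3 h the DMSO arrays read 4.61, 4.36, 4.42 and 4.57 and the RA arrays 5.68, 7.5 and 5.7. Every RA array lay above every DMSO array at both times, and 1 array at 3 h stood far above the other 2. bmp5 rose by 1.17 ± 0.23 (SE) at 1.5 h (adjusted p = 0.000425) and by 1.80 ± 0.25 at 3 h (adjusted p = 1.85e-07). Without RA array 2 at 3 h the rise was 1.20 (adjusted p = 0.000331), with the compared groups fitted alone its adjusted p was 0.0552, and with pseudocounts of 1 and 64 the rise was 3.06 and 0.85, and that at 1.5 h 2.28 and 0.49. In the other 15 groups bmp5 had means between 4.29 and 4.71. It lay above the array median on 7 of 72 arrays, 6 of them RA arrays and 1 a DMSO array, so that it entered the test through the groups in which it was high and had to differ there. No fold is given for it, since the size of its difference follows the pseudocount, and it is 1 of the 4 member calls at each RA time.

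The inhbb transcript, which encodes the beta B subunit of activins and inhibins, rose by nearly the same amount at both times of RA. Its DMSO arrays at 1.5 h read 7.53, 7.78, 7.33 and 7.36 and its RA arrays 8.86, 8.39, 8.57 and 7.99, without overlap. At 3 h the DMSO arrays read 7.71, 7.14, 7.1 and 7.28 and the RA arrays 8.1, 7.96 and 8.71, again without overlap. The rises were 0.95 ± 0.22 (1.94-fold, adjusted p = 0.00344) and 0.95 ± 0.24 (1.93-fold, adjusted p = 0.00771). Without RA array 3 the call at 3 h was lost, and the highest adjusted p over its alternatives was 0.179. With DAPT for 3 h inhbb read 5.65 and 7.17 beside 7.29, 7.31, 7.55 and 7.18 with DMSO, a fall of 0.92 ± 0.27 (1.89-fold, adjusted p = 0.0299). That call rests on 1 array: without it the difference was -0.16 (adjusted p = 0.872).

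bmp4, a BMP ligand of the ventral and tail-bud region, was lowest in the dkk1 group among the groups heat shocked for 30 min. The wild-type arrays at 1 h read 6.7, 6.6, 7.74 and 6.84 and the dkk1 arrays 4.54, 5.54, 5.98 and 4.72, without overlap. bmp4 fell by 1.77 ± 0.49 (3.42-fold, adjusted p = 0.005) there. With a pseudocount of 64 the difference was -1.0 (adjusted p = 0.00911), so the fold follows the pseudocount. The libraries labelled DeltaTcf (5.87, 6.13, 6.09 and 5.27) and the wnt8a arrays (5.85, 6.11, 6.05 and 5.22) also lay below every wild-type array, with differences of -1.13 (adjusted p = 0.0944) and -1.16 (adjusted p = 0.0979) that did not pass the test. Between dkk1 and wnt8a the difference was -0.61 (adjusted p = 0.586).

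bmp4 also varied widely inside groups. In gal4 embryos at 45 min it stood at 5.22 and 5.33 on arrays 1 and 3 and at 8.44 and 7.9 on arrays 2 and 4, and in notch1a-intra embryos at 45 min at 5.67 and 5.47 on arrays 1 and 3 and at 7.28 and 7.01 on arrays 2 and 4. Arrays of one number were thus alike in both groups for this gene. The Notch difference in bmp4 was -0.37 at 45 min (adjusted p = 0.751) and 0.66 at 90 min (adjusted p = 0.497).

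The last ligand called was inhbaa, the activin beta A subunit, which fell by 0.77 ± 0.28 in the dkk1 group, from 5.19 ± 0.17 to 4.41 ± 0.28 (adjusted p = 0.0345). Without any 1 of 6 single arrays this call was lost (adjusted p up to 0.0896), as it was with the deposited scaling (0.065) and after median centring (0.0622). With pseudocounts of 1 and 64 the difference of inhbaa, which lay above the array median on 4 of 72 arrays, was -1.89 (adjusted p = 0.02) and -0.26 (adjusted p = 0.111). The other 6 tested ligands were never called: bmp2a, bmp2b, bmp3, bmp8a, gdf3 and gdf6a. gdf6a, a GDF ligand with dorsal and retinal roles, averaged 6.57 ± 0.71 with RA for 1.5 h and 5.53 ± 0.18 with DMSO, a difference of 1.04 ± 0.35 with an adjusted p of 0.0798. bmp2b, a ventralising ligand of the early embryo, averaged 6.31 ± 0.17 and 5.71 ± 0.35 in the same groups, a difference of 0.59 ± 0.21 with an adjusted p of 0.105. Group means of bmp3 ran from 5.76 to 7.8 and those of bmp2a from 4.23 to 5.9. The 6 ligand genes with no tested probe set, bmp6, bmp7a, bmp15, gdf6b, gdf7 and tgfb1a, lay above the array median on at most 2 of 72 arrays.

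Among the secreted antagonists 3 of 6 genes were tested and 1 was called, beside 52.2% of all probe sets called at least once. nog1 encodes noggin, which binds BMP ligands outside the cell. It stood at 5.37, 4.2, 5.27 and 5.27 in wild type at 1 h and at 6.47, 6.15, 6.93 and 6.3 with dnfgfr1, without overlap, so that nog1 rose by 1.44 ± 0.27 (adjusted p = 0.000475). With pseudocounts of 1 and 64 the rise was 2.3 and 0.78. At 30 min it stood at 5.11, 5.19, 5.37 and 5.01 in wild type and at 5.3, 5.3, 5.28 and 5.23 with dnfgfr1, a difference of 0.11 (adjusted p = 0.928). The difference between the times was 1.33 and did not pass the test (adjusted p = 0.147). In the other groups nog1 averaged between 4.51 and 5.61, and it lay above the array median on 9 of 72 arrays, among them all 4 of dnfgfr1 at 1 h and none of wild type.

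chrd, which encodes the BMP antagonist chordin, had the widest range of group means of any member, from 4.63 with RA for 3 h to 7.42 with notch1a-intra at 90 min, yet it was never called. Its arrays scattered within groups: gal4 at 90 min read 6.86, 6.38, 5.66 and 9.37, and dnfgfr1 at 1 h read 4.49, 7.47, 7.32 and 6.75 beside 5.02, 4.21, 4.77 and 7.11 in wild type. The third tested antagonist, bmper, had group means from 4.35 to 5.66 and no call. nog2, nog3 and fsta had no tested probe set and lay above the array median on at most 1 array.

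Among the receptors 7 of 8 genes were tested and 5 were called, beside 52.2% of all probe sets called at least once. The 7 genes have 11 tested probe sets, so some could be called on more than 1. acvr1l, a zebrafish type I BMP receptor also known as Alk8, fell in some groups and rose in another. It read 8.6, 8.5, 8.39 and 8.67 in wild type at 1 h, 7.68, 7.96, 8.0 and 7.98 with dkk1, 7.73, 7.65, 8.05 and 7.84 with dnfgfr1 and 8.79, 8.91, 8.83 and 8.5 with wnt8a. The dkk1 and dnfgfr1 arrays lay below all wild-type arrays, and the wnt8a arrays overlapped them. acvr1l fell by 0.63 ± 0.15 with dkk1 (1.55-fold, adjusted p = 0.00126) and by 0.72 ± 0.15 with dnfgfr1 at 1 h (1.65-fold, adjusted p = 0.00197), in comparisons that share their wild-type arrays. Between dkk1 and wnt8a the difference was -0.85 ± 0.15 (1.80-fold, adjusted p = 0.000272), which uses no wild-type array. At 30 min the dnfgfr1 difference was -0.29 (adjusted p = 0.39).

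In gal4 embryos at 90 min acvr1l read 7.43, 7.18, 7.35 and 7.67, and with notch1a-intra 8.34, 8.12, 8.28 and 8.09. These groups did not overlap, and acvr1l rose by 0.80 ± 0.15 (1.74-fold, adjusted p = 0.000275). At 45 min the difference was 0.33 (adjusted p = 0.218), and that between the times was 0.47 (adjusted p = 0.391).

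**Figure D3:**
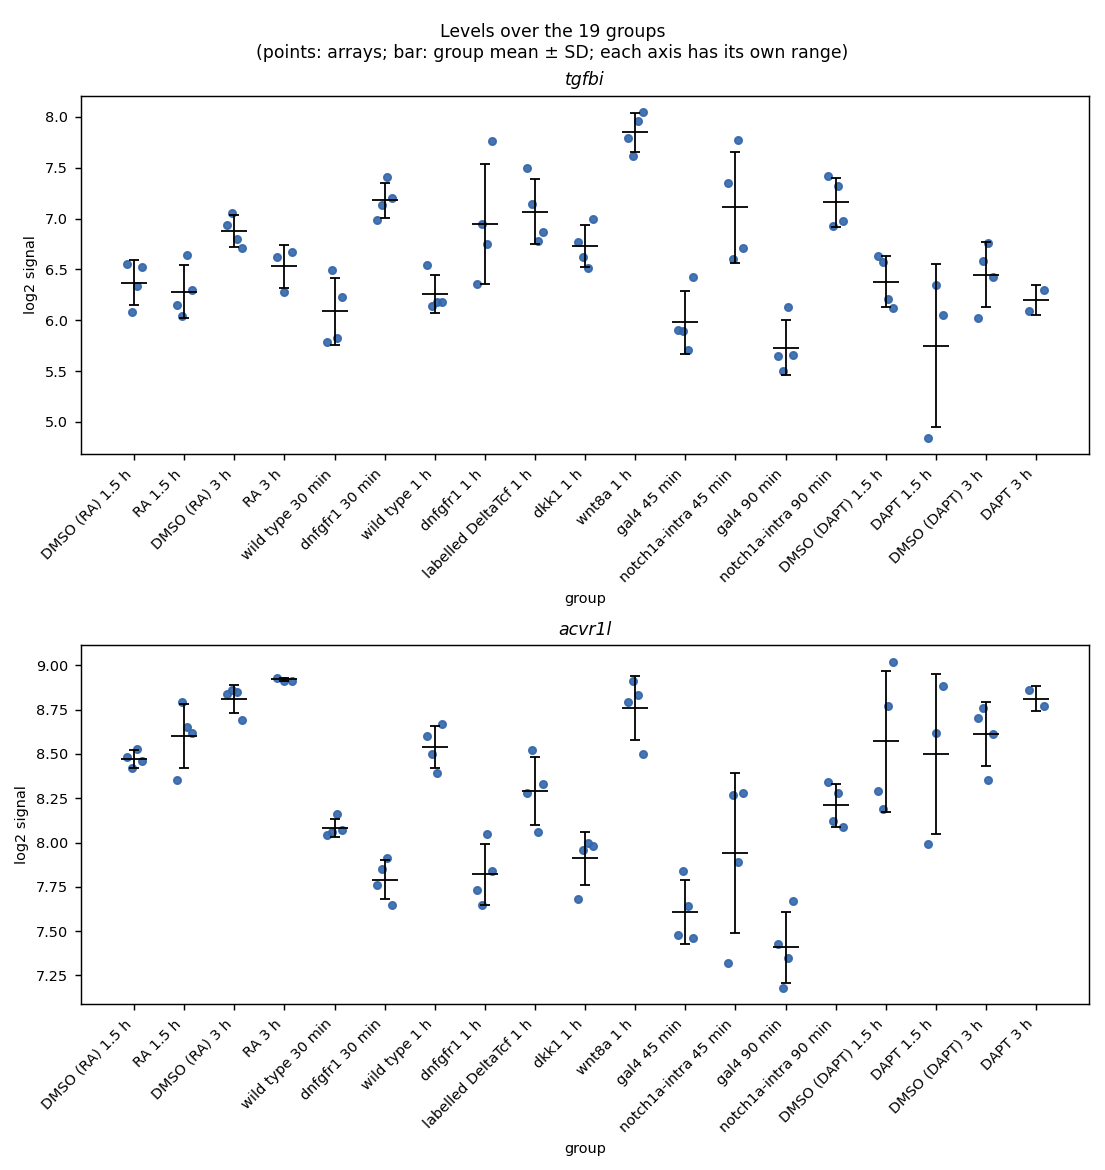
Log2 signal (vertical axes) of tgfbi and acvr1l in each of the 19 groups (horizontal axes), with points for arrays and bars for the group mean ± SD. All wnt8a arrays lie above the wild-type arrays for tgfbi, and all notch1a-intra arrays at 90 min lie above the gal4 arrays for both genes.

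acvr2ba, a type II activin receptor, has 3 tested probe sets that did not move alike. They are numbered here as in the heatmap, and the one called most, probe set 1, read 6.98, 7.22, 6.42 and 6.95 in wild type at 1 h. It read 4.93, 5.87, 5.61 and 5.99 in the libraries labelled DeltaTcf, 5.51, 5.22, 4.95 and 6.22 with dkk1, and 5.89, 4.82, 6.2 and 5.04 with wnt8a. All 12 arrays of the Wnt groups lay below every wild-type array, with the same wild-type arrays in each comparison. The differences were -1.29 ± 0.29 (2.45-fold, adjusted p = 0.000718), -1.42 ± 0.29 (2.67-fold, adjusted p = 0.000167) and -1.41 ± 0.29 (2.65-fold, adjusted p = 0.000348). Between dkk1 and wnt8a directly, probe set 1 was not called. Probe set 3 of acvr2ba fell by 0.63 ± 0.24 with dkk1 (adjusted p = 0.0461) and by 0.90 ± 0.24 with wnt8a (adjusted p = 0.00578), with overlapping arrays, and differed by -0.45 with the DeltaTcf label (adjusted p = 0.191). The dkk1 call of probe set 3 was lost in 7 of 18 alternatives, 5 of them leaving out a single array, with adjusted p up to 0.195. Its wnt8a call was lost with the compared groups fitted alone (adjusted p = 0.0841, or 0.11 with a replicate block) and without wnt8a array 2 (-0.67, adjusted p = 0.0625). With a pseudocount of 64 the 3 differences of probe set 1 were -0.78, -0.85 and -0.83, and all were called. Probe set 2 of acvr2ba differed by -0.55, -0.26 and -0.01 in the dkk1, wnt8a and DeltaTcf comparisons and was not called.

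Probe set 1 of acvr2ba was also called with Notch altered in either direction. It fell by 0.99 ± 0.29 with notch1a-intra at 90 min (adjusted p = 0.0272), where arrays 1 and 3 read 7.32 and 7.27 and arrays 2 and 4 read 5.96 and 5.76 beside 7.19 to 7.81 with gal4, and the groups overlapped. It fell by 1.04 ± 0.31 with DAPT for 1.5 h (adjusted p = 0.0455), from 7.53, 7.47, 8.01 and 7.58 to 7.06, 6.27 and 6.51. Neither call was steady: over the alternatives its adjusted p reached 0.164 for Notch and 0.274 for DAPT, and leaving out any 1 of 4 DMSO arrays ended the DAPT call. Without array 2, 3 or 4 of gal4 or array 2 or 4 of notch1a-intra the Notch call was lost. With the deposited scaling the DAPT comparison at 1.5 h called 1 higher and 0 lower, a probe set of bmpr1aa in place of acvr2ba. At 90 min of Notch probe set 2 of acvr2ba differed by 0.60 and probe set 3 by -0.60, neither called.

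bmpr1ba, a type I BMP receptor, averaged 5.03 ± 0.1 in wild type, with arrays at 5.14, 4.97, 4.93 and 5.08, and 4.29 ± 0.18 with dkk1, with arrays at 4.3, 4.2, 4.13 and 4.55. Its fall of 0.74 ± 0.25 passed the test (adjusted p = 0.0216). The call was lost after centring each array on its median (adjusted p = 0.052) and without wild-type array 1 or dkk1 array 2 or 3 (adjusted p up to 0.0601). With pseudocounts of 1 and 64 the difference of bmpr1ba, which lay above the array median on 6 of 72 arrays, was -2.05 and -0.24, the latter not called (adjusted p = 0.0895). bmpr1ab, another type I BMP receptor, averaged 8.58 ± 0.12 in wild type at 1 h, 9.15 ± 0.13 with dkk1 and 9.15 ± 0.14 with wnt8a. It rose by 0.56 ± 0.2 (adjusted p = 0.0288) and 0.57 ± 0.2 (adjusted p = 0.038) and was the only member called higher with dkk1. With RA for 3 h bmpr1ab fell by 0.70 ± 0.21, from 8.31 ± 0.15 to 7.61 ± 0.08 (n = 3, adjusted p = 0.0477). Of 3 tested probe sets of bmpr1aa, 1 fell by 0.54 ± 0.17 with notch1a-intra at 90 min (probe set 1 in the heatmap, adjusted p = 0.0395), while its other probe sets differed by -0.08 and -0.05. The RA call of bmpr1ab was lost without any 1 of the 7 arrays compared, and that of bmpr1aa without any 1 of 7 of the 8 arrays, with adjusted p reaching 0.18 and 0.181. The bmpr1ab calls with dkk1 and wnt8a were also lost without some single arrays, with adjusted p up to 0.0859 and 0.112. acvrl1, a type I receptor of vessels, and tgfbr2b, a TGF-beta type II receptor, were tested and never called.

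Among the receptor SMADs 4 of 5 genes were tested and 2 were called, both lower in Wnt groups. Of all probe sets 52.2% were called at least once. smad5, the BMP transducer, read 9.48, 9.38, 9.14 and 9.2 in wild type at 1 h. It read 8.66, 8.84, 8.66 and 9.07 in the libraries labelled DeltaTcf, 8.7, 8.79, 8.26 and 9.04 with dkk1 and 8.55, 8.84, 9.03 and 8.81 with wnt8a, below every wild-type array in each case. The differences of smad5 were -0.49 ± 0.14 (adjusted p = 0.0067), -0.61 ± 0.14 (adjusted p = 0.000637) and -0.49 ± 0.14 (adjusted p = 0.00845), or 1.41-fold, 1.52-fold and 1.41-fold. Without wnt8a array 1 the last had an adjusted p of 0.0548.

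smad3a, a transducer of TGF-beta, activin and Nodal signals, read 6.04, 6.2, 6.15 and 6.22 in wild type at 1 h and 5.67, 5.28, 5.15 and 5.16 with dkk1. The wnt8a arrays read 5.4, 5.9, 5.54 and 5.55 and the libraries labelled DeltaTcf 5.96, 5.51, 5.55 and 5.6, and none of these 12 arrays reached the wild-type range. smad3a fell by 0.83 ± 0.19 with dkk1 (1.78-fold, adjusted p = 0.000654) and by 0.56 ± 0.19 with wnt8a (1.47-fold, adjusted p = 0.035), the latter lost without any 1 of 6 single arrays (adjusted p up to 0.11). With a pseudocount of 64 the dkk1 and wnt8a differences of smad3a were -0.43 and -0.31, both called, so the folds follow the pseudocount. The wnt8a call was lost with a pseudocount of 1 (-0.76, adjusted p = 0.0725) and with no filter (adjusted p = 0.0537). With the DeltaTcf label smad3a differed by -0.50 (adjusted p = 0.0546), and with RA by -0.50 at 1.5 h (adjusted p = 0.133) and -0.66 at 3 h (adjusted p = 0.0584). smad2 and smad3b were tested and never called. smad1 lay above the array median on none of 72 arrays.

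**Figure D4:**
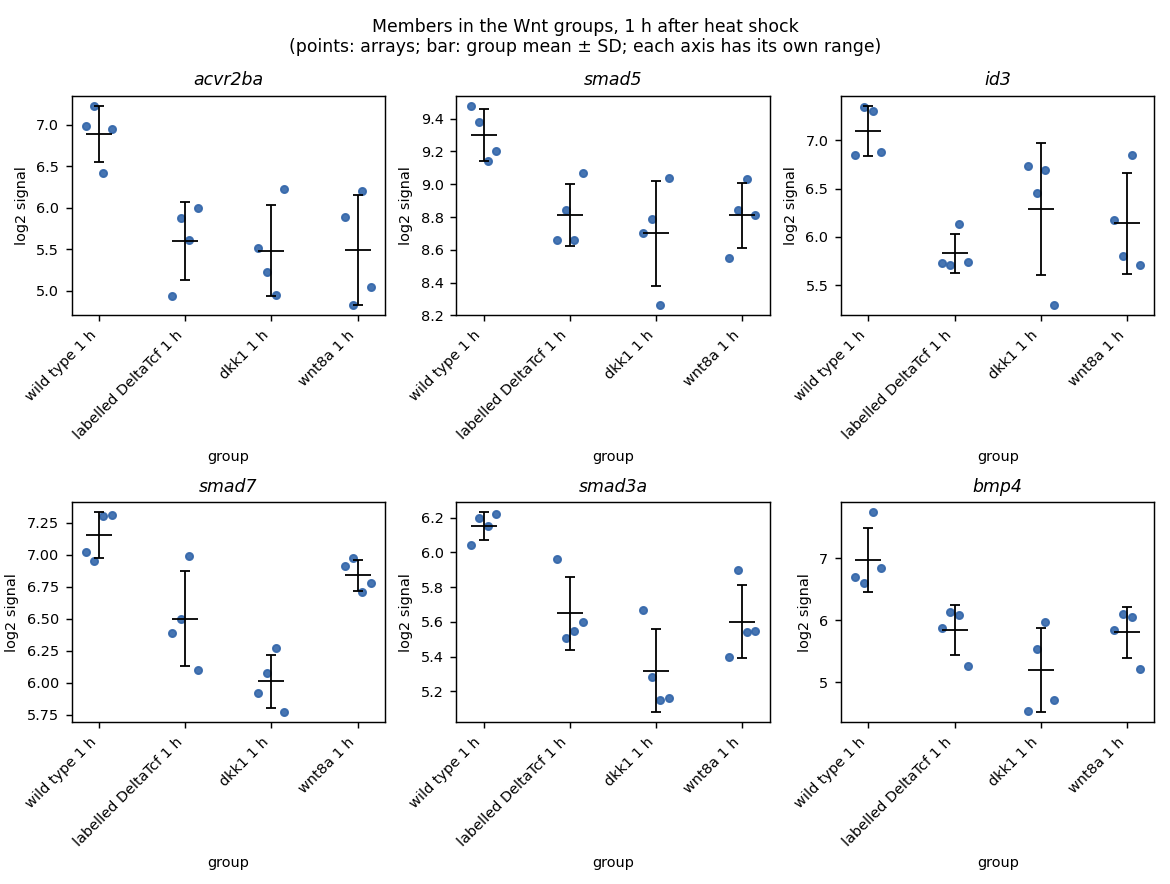
Log2 signal (vertical axes) of 6 members in wild type and in the 3 Wnt groups 1 h after heat shock (horizontal axes), with points for the 4 arrays and bars for the group mean ± SD. For acvr2ba (probe set 1), smad5, smad3a and bmp4 all 12 arrays of the Wnt groups lie below the wild-type arrays, while smad7 is lowest with dkk1. The share of all probe sets so placed was not counted.

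Of the 2 inhibitory SMADs, smad7 was called in 5 comparisons and smad6a in none. smad7 encodes the inhibitor of TGF-beta and BMP receptor signalling. It read 7.02, 6.95, 7.3 and 7.31 in wild type at 1 h, 5.92, 6.08, 6.27 and 5.77 with dkk1, 6.91, 6.97, 6.71 and 6.78 with wnt8a, and 6.39, 6.5, 6.99 and 6.1 in the libraries labelled DeltaTcf. The dkk1 arrays lay below every wild-type and wnt8a array and overlapped those labelled DeltaTcf, and smad7 fell by 1.13 ± 0.19 against wild type (2.20-fold, adjusted p = 6.75e-06) and by 0.83 ± 0.19 against wnt8a (1.78-fold, adjusted p = 0.00639). With the DeltaTcf label smad7 fell by 0.65 ± 0.19 (1.57-fold, adjusted p = 0.0108), with 1 array inside the wild-type range, and without DeltaTcf array 4 its adjusted p was 0.0671. With wnt8a it differed by -0.30 (adjusted p = 0.317).

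With RA for 1.5 h smad7 read 8.03, 7.68, 8.1 and 7.57 beside 7.19, 7.42, 6.71 and 7.35 with DMSO, and rose by 0.68 ± 0.19 (1.60-fold, adjusted p = 0.0267). Without overlap between the groups, this call was still lost when RA array 1, RA array 3 or DMSO array 3 was left out, and with the compared groups fitted alone, with adjusted p up to 0.206. With RA for 3 h smad7 differed by 0.48 (adjusted p = 0.317). With notch1a-intra at 45 min it read 7.16, 6.99, 6.94 and 7.1 beside 7.52, 8.17, 7.7 and 7.72 with gal4, and fell by 0.73 ± 0.19 (1.66-fold, adjusted p = 0.0159). smad6a averaged 5.8 ± 0.13 with RA for 3 h and 6.61 ± 0.16 with DMSO, a difference of -0.81 ± 0.26 with an adjusted p of 0.065.

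Among the ID factors, which bind basic helix-loop-helix proteins and keep them from DNA, 4 of 5 genes were tested and 3 were called. Of all probe sets 52.2% were called at least once. id1 had the smallest adjusted p of any member in any comparison. It read 11.3, 11.07, 11.07 and 11.5 with DMSO for 1.5 h and 10.44, 10.29, 9.95 and 10.13 with RA, without overlap, a fall of 1.04 ± 0.13 (2.05-fold, adjusted p = 6.36e-09). This was the lowest group mean of id1 in the study, and the other 18 group means ran from 10.97 to 11.85. At 3 h id1 read 11.37, 11.51, 11.41 and 11.26 with DMSO and 10.94, 11.46 and 10.98 with RA, and the difference was -0.26 (adjusted p = 0.51). The RA effect at 3 h minus that at 1.5 h was 0.78 ± 0.19 and passed the test (adjusted p = 0.0218). Without RA array 2 at 3 h it was 0.61 (adjusted p = 0.171), and with the compared groups fitted alone its adjusted p was 0.0753. Between wild-type embryos 1 h and 30 min after heat shock id1 fell by 0.41 ± 0.13 (1.33-fold, adjusted p = 0.049), a call that 13 of 18 alternatives lost.

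id3 read 6.85, 7.35, 7.3 and 6.88 in wild type at 1 h. The libraries labelled DeltaTcf read 5.73, 5.71, 6.13 and 5.74, the dkk1 arrays 6.73, 6.45, 6.69 and 5.29 and the wnt8a arrays 6.18, 5.8, 6.85 and 5.71. id3 fell by 1.27 ± 0.31 with the DeltaTcf label (2.41-fold, adjusted p = 0.0019), by 0.81 ± 0.31 with dkk1 (1.75-fold, adjusted p = 0.0495) and by 0.96 ± 0.31 with wnt8a (1.95-fold, adjusted p = 0.0244). The dkk1 call was lost without any 1 wild-type array or without dkk1 array 2 or 4, with an adjusted p of up to 0.31. The wnt8a call was lost without any 1 of 4 single arrays, with an adjusted p of up to 0.0992. id3 differed by -0.96 with dnfgfr1 at 30 min (adjusted p = 0.0797) and by 0.10 at 1 h (adjusted p = 0.95). id2a rose by 0.74 ± 0.25 in the libraries labelled DeltaTcf, from 7.62, 7.83, 8.38 and 7.6 to 8.66, 8.68, 8.55 and 8.52 (1.68-fold, adjusted p = 0.027). The id2a call was lost after centring each array on its median (adjusted p = 0.0727) and without DeltaTcf array 1 or 2 or wild-type array 1, 2 or 4 (adjusted p up to 0.0867). acvr2ba (probe set 1), smad5 and id3 were the 3 member probe sets called in all 3 Wnt groups, and all 3 were lower in each. None of the 3 was called between dkk1 and wnt8a. How many of all probe sets were called in all 3 groups was not counted. With the DeltaTcf label, dkk1 and wnt8a 20.6%, 24.6% and 16.2% were called, against the same wild-type arrays. id4 was never called.

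**Figure D5:**
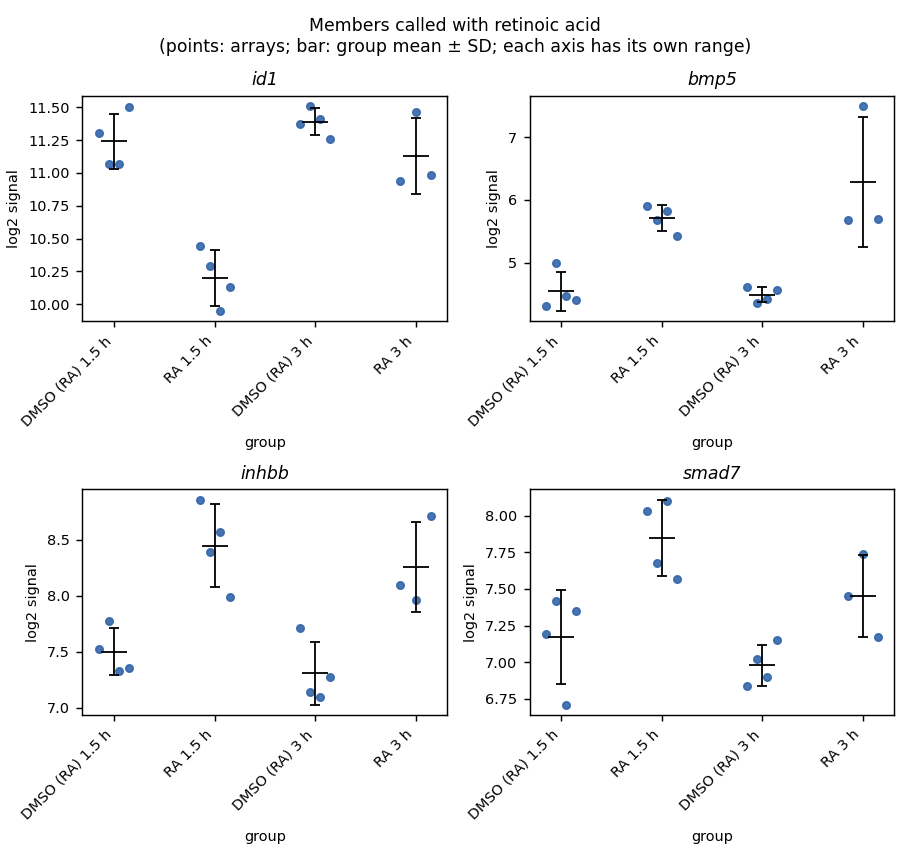
Log2 signal (vertical axes) of id1, bmp5, inhbb and smad7 in the RA groups and their DMSO controls (horizontal axes), with points for arrays (4 per group, 3 with RA for 3 h) and bars for the group mean ± SD. The id1 arrays with RA for 1.5 h lie below all others, and 1 bmp5 array with RA for 3 h stands at 7.5.

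Another 4 genes matched the rule by name and were not placed in the roles above, and 3 were tested. tgfbi encodes a secreted matrix protein first known as a TGF-beta-induced gene. It was the member called most often, higher in 5 comparisons with a control. Wild type at 1 h read 6.54, 6.14, 6.18 and 6.18 and wnt8a 7.79, 7.62, 7.96 and 8.05, and tgfbi rose by 1.59 ± 0.23 (3.02-fold, adjusted p = 1.05e-06). In the libraries labelled DeltaTcf it read 7.5, 7.14, 6.78 and 6.87 and rose by 0.81 ± 0.23 (1.76-fold, adjusted p = 0.0088), and without DeltaTcf array 1 its adjusted p was 0.0572. With dkk1 it read 6.77, 6.62, 6.51 and 7.0, a difference of 0.47 (adjusted p = 0.143), and it was 1.13 ± 0.23 lower than with wnt8a (2.18-fold, adjusted p = 0.00196).

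With dnfgfr1 at 30 min tgfbi read 6.99, 7.13, 7.41 and 7.2 beside 5.79, 6.49, 5.83 and 6.23 in wild type, a rise of 1.1 ± 0.23 (2.14-fold, adjusted p = 0.00254). At 1 h it differed by 0.70 (adjusted p = 0.0855). With notch1a-intra at 90 min tgfbi read 7.42, 6.93, 7.32 and 6.98 beside 5.65, 5.5, 6.13 and 5.66 with gal4, a rise of 1.43 ± 0.23 (2.69-fold, adjusted p = 1.97e-05). At 45 min the notch1a-intra arrays read 7.35, 6.6, 7.77 and 6.71 beside 5.9, 5.89, 5.71 and 6.43, a rise of 1.12 ± 0.23 (2.18-fold, adjusted p = 0.00202). The arrays of these pairs of groups did not overlap. tgfbi was lower on the 2 arrays with little notch1a than on the other 2 at 45 min. With DAPT it differed by -0.64 at 1.5 h (adjusted p = 0.146) and -0.25 at 3 h (adjusted p = 0.682).

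Both calls at 45 min depended on how the arrays were fitted. Same-numbered arrays of the 45 min groups deviated together. With the array number as a replicate block, in a fit of these groups alone, none of the 38 members was called in limma. In the unblocked fit of all arrays 15 members had an unadjusted p under 0.05, and that share over all probe sets was not counted. The blocked adjusted p was 0.116 for tgfbi and 0.0973 for smad7. The same fit of these groups alone without the block also called 0 members, with an adjusted p of 0.121 for tgfbi and 0.113 for smad7. Over all probe sets 61 were called without the block and 158 with it. Without arrays 2 and 4 of notch1a-intra, 9 members were called, while the count over all probe sets went from 414 to 1187. The gal4 arrays 2 and 4 stayed in that fit, so array number and Notch cannot be told apart in it. In that fit tgfbi (1.58), fstl1b (1.20) and chrd (2.14) were higher. Lower were smad7 (-0.73), bmpr1aa (-0.67), id2a (-1.19), bmp2a (-1.1), bmp8a (-0.98) and probe set 3 of acvr2ba (-0.86). With arrays 1 and 3 alone in both groups, a comparison added after seeing the data, 567 of all probe sets and 4 members were called: tgfbi (1.75, adjusted p = 0.000162), fstl1b (1.46), bmpr1aa (-0.72) and id2a (-1.18), while smad7 differed by -0.56 (adjusted p = 0.245). The smad7 call was also lost without gal4 array 2 or notch1a-intra array 3.

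fstl1b, which encodes a secreted follistatin-like glycoprotein, read 8.22, 7.94, 8.1 and 8.46 in wild type at 1 h and 6.78, 6.76, 6.61 and 7.75 with dnfgfr1, and fell by 1.20 ± 0.31 (2.31-fold, adjusted p = 0.013). With RA for 3 h it read 7.9, 7.57 and 7.81 beside 9.61, 9.12, 8.52 and 8.36 with DMSO, and fell by 1.14 ± 0.33 (2.21-fold, adjusted p = 0.0332). Neither pair of groups overlapped. The first call was lost without wild-type array 4 or dnfgfr1 array 3 (adjusted p up to 0.0618) and the second without DMSO array 1 or 2 or any RA array (adjusted p up to 0.211). bmp2k, a protein kinase named as BMP-inducible, was tested and never called.

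Of 71 further genes of the pathway, listed by role, 32 were tested. The list was chosen with earlier results of these data known and uses each gene's probe set with the highest mean. Its counts beside the share of all probe sets are thus no result about the pathway. The median difference of the 32 was -0.21 with RA for 1.5 h, -0.33 with the DeltaTcf label, -0.54 with dkk1 and -0.05 with wnt8a, beside -0.02, 0.0, -0.01 and 0.01 over all probe sets. With RA for 1.5 h, 3 rose and 5 fell, 8 of 32 beside 4.34% of all probe sets. skib, a Ski-family repressor of SMAD activity, rose by 2.08 ± 0.24 (adjusted p = 6.22e-10), and smurf2, a ubiquitin ligase that acts on SMADs and receptors, by 0.96 ± 0.2 (adjusted p = 0.000646). Of the genes listed as BMP or Nodal outputs, vox, a ventral homeobox repressor, fell by 2.22 ± 0.33 (adjusted p = 1.63e-06), with tbxta (-1.85), msx3 (-1.46) and msx1a (-0.92) also lower. In contrast tp63 rose by 2.25 ± 0.59 (adjusted p = 0.0152), from 6.36 ± 1.89 (SD) to 8.61 ± 0.44. The output genes tp63, tbxta and noto are also on the lists of cell type markers used below. tob1a, a regulator of SMAD signalling, fell by 1.20. With RA for 3 h 1 rose and 2 fell, beside 3.68% of all: skib rose by 3.10 ± 0.25 (adjusted p = 3.85e-15), and tbxta (-1.69) and tob1a (-1.08) fell. smurf2 moved between the times, with a difference of -1.47 (adjusted p = 0.0025).

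With dkk1, 10 of the 32 fell and 3 rose, beside 24.6% of all probe sets called and 12.1% lower. tgif1, a homeobox co-repressor of SMADs, fell by 1.07 ± 0.14 (adjusted p = 3.44e-08) and map3k7, the kinase TAK1, by 1.11 ± 0.19 (adjusted p = 5.92e-06). The homeobox genes vox (-1.16), eve1 (-1.79), msx1a (-1.39) and noto (-1.95) fell, as did tob1b (-0.96), tob1a (-0.82), ppm1aa (-0.58) and smurf1 (-0.55), and xiap, tab1 and cdx4 rose by 0.70, 0.43 and 0.20. In the libraries labelled DeltaTcf 7 fell and none rose, beside 20.6% of all called and 10.6% lower. With wnt8a 3 fell (tgif1, map3k7 and nedd4l) and 1 rose (cdx4), beside 16.2% of all. Between dkk1 and wnt8a, noto (-2.72), msx1a (-1.47) and vox (-1.14) were lower with dkk1 and nedd4l (1.05) was higher, beside 3.28% of all. None of the 32 was called in limma with dnfgfr1, where 5 at 30 min and 4 at 1 h had an unadjusted p under 0.05, or with notch1a-intra, where 5 did at 45 min and 6 at 90 min. How many of all probe sets did so was not counted. DAPT gave 2 falls at 1.5 h, beside 4.09% of all, and 3 rises and 1 fall at 3 h, beside 5.35%.

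Markers of other cell types moved in some comparisons beside the members. With RA for 1.5 h, 5 of 10 tested PSM markers were lower and 1 higher, and 3 of 7 muscle markers were lower. Higher were tp63 of 9 epidermal, sox3 of 8 neural, and gata3 and lhx1a of 5 pronephric markers. Of all probe sets 4.34% were called there. With RA for 3 h, 4 of 10 PSM markers and lgals3b of the epidermal list were lower. Another PSM marker, gata3 and lhx1a were higher, beside 3.68% of all. With dnfgfr1 lgals3b was higher at 30 min, beside 3.0%, and mespaa and myf5 were lower at 1 h, beside 3.42%. At 1 h no neural marker was called, but 3 of 8 had an unadjusted p under 0.05 in limma, with a median difference of 0.82. Summed signals here add the deposited linear values, without log2 or quantile normalisation. The summed epidermal signal ranged from 463 to 3620 with DMSO and from 1630 to 5570 with RA at 1.5 h, and from 658 to 3340 and 458 to 706 at 3 h. The summed pronephric signal ranged from 55.9 to 223 and from 163 to 325 at 1.5 h. With notch1a-intra at 45 min 3 of 7 muscle markers and ntd5, listed for notochord and floor plate, were higher, beside 4.09% of all probe sets called. None of 8 blood and vessel markers was called there, but 6 had an unadjusted p under 0.05 in limma, with a median difference of -1.48. That share over all probe sets was not counted. The summed blood and vessel signal ranged from 996 to 3340 with gal4 and from 125 to 737 with notch1a-intra, without overlap. With DAPT for 3 h 4 of 10 PSM markers were lower, beside 5.35% of all. With dkk1 the muscle gene myod1 rose by 1.59 (adjusted p = 0.00167) and shha, a floor plate and notochord gene, by 1.17 (adjusted p = 0.0016), while lgals3b, listed for epidermis, fell by 2.23 (adjusted p = 0.000345), noto, of the notochord, by 1.95 (adjusted p = 0.0466) and the PSM marker fgf8a by 1.56 (adjusted p = 0.0282). In the libraries labelled DeltaTcf fgf8a fell by 2.54 (adjusted p = 0.000443), the neural gene sox2 by 2.34 (adjusted p = 0.00138), lgals3b by 1.60 (adjusted p = 0.0123) and tbx16l, of the PSM, by 0.46 (adjusted p = 0.00854). With wnt8a lgals3b fell by 1.79 (adjusted p = 0.00605). These were 5, 4 and 1 of 53 tested markers of all lists, beside 24.6%, 20.6% and 16.2% of all probe sets called in the same comparisons. The summed PSM signal ranged from 16100 to 18800 in wild type at 1 h, from 18400 to 21600 with the DeltaTcf label, from 19900 to 23000 with dkk1 and from 19700 to 22500 with wnt8a. In this linear sum all dkk1 and wnt8a arrays lay above all wild-type arrays. On the normalised log2 scale 0 of the 10 PSM markers were called higher in these 3 groups. Their median differences were -0.17 with the DeltaTcf label, -0.16 with dkk1 and 0.01 with wnt8a. The summed muscle signal ranged from 7110 to 9920 in wild type and from 6480 to 14100 with dkk1, and the epidermal sum from 2360 to 5090 and from 681 to 4060, with overlap in both. Their part in the members' differences was not tested.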

How the data were processed

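Posterior PSM RNA was measured on 72 Affymetrix zebrafish arrays in 19 groups. The deposited values are 1 linear intensity per probe set, scaled and summarised by the authors with MAS5 per the submitters' processing notes, with no version given there. The 13 arrays of the DAPT experiment hold values rounded to 1 decimal. Depth has no meaning for arrays, and the number of arrays limits the precision. Here 115 control probe sets of 15617 were left out and 16 was added before log2. Because medians of the arrays ranged from 5.31 to 6.05, a span of 0.738, values were quantile normalised. Probe sets above their array's median on at least 3 arrays were kept.

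All groups were fitted together in limma 3.58.1 (statmod 1.5.0, R 4.3.3; lmFit, contrasts.fit and eBayes with trend and robust), two-sided, with Benjamini-Hochberg adjustment within a comparison over all 10126 probe sets and a threshold of 0.05. The fit was tested on simulated data. Members were found by symbol in the array annotation, updated through the GRCz12tu RefSeq table, which matched 58 of 59 probe sets. The members, the 71 further pathway genes and the marker lists were chosen with earlier results of these data known. Every called member is named. Array values are given for the 14 genes with the smallest adjusted p among calls whose arrays did not overlap, and others were named after their values were seen. Listed pathway genes and markers use the probe set with the highest mean.

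The labels do not say whether the array number pairs samples. At 45 min of Notch pairing was inferred, since the correlations of the 4 pairs' deviations lay between 0.21 and 0.312. There 3 of 4 arrays correlated best with their own number. No batch or scan date was given. Alternatives were the deposited scaling, median centring, pseudocounts of 1 and 64, no filter, a filter of 36 arrays, no trend and robust settings, array quality weights, the compared groups alone with or without a replicate block, and leaving out arrays.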

Additional observations from a re-analysis of the deposited data

Results flagged for a closer look

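Of the called genes, 14 (id1, bmp5, tgfbi, smad7, acvr2ba, acvr1l, nog1, smad5, smad3a, id3, inhbb, bmp4, fstl1b and bmpr1ba) were checked in the groups of 4 arrays that enter their called comparisons, which are 62 pairs of a gene and a group. In 5 of them 1 array's gap to the nearest other spanned most of the group's range, which chance gives in about 1 in 20 groups. Over all 224 pairs of these genes with groups of 4 arrays there were 14. tgfbi stood at 6.54 on wild-type array 1 at 1 h, with the others between 6.14 and 6.18. acvr1l stood at 7.68 on dkk1 array 1, with the others between 7.96 and 8.0. nog1 stood at 4.2 on wild-type array 2 at 1 h, with the others between 5.27 and 5.37. id3 stood at 6.13 on array 3 of the libraries labelled DeltaTcf, with the others between 5.71 and 5.74. fstl1b stood at 7.75 on dnfgfr1 array 4 at 1 h, with the others between 6.61 and 6.78.

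Effects of 2 members differed between times by a test of the difference itself in limma. For id1 the RA effect at 3 h minus that at 1.5 h was 0.78 (adjusted p = 0.0218). For inhbb the DAPT effect at 3 h minus that at 1.5 h was -1.29 (adjusted p = 0.0288), and without DAPT array 1 at 3 h it was -0.53 (adjusted p = 0.534).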

How the results depend on the processing

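Of 50 member calls, differences between times included, 21 stayed past the threshold in every alternative that tested them. Another 29 were lost in at least 1 alternative, and 0 changed sign. Among the 21 are the calls of bmp5 with RA for 1.5 h and of nog1 with dnfgfr1 at 1 h. The stricter filter removed bmp5 and nog1 before testing, so these calls were not made with it. The counts of members called changed most with array quality weights: 8 with RA for 1.5 h, 7 for 3 h and 2 for the RA difference, 4 with dnfgfr1 at 30 min and 1 for its difference, 17 with Notch at 45 min, 7 at 90 min and 6 for the Notch difference, 3 in wild type, and 0 with DAPT for 3 h and for the DAPT difference. With the compared groups fitted alone the counts were 0 for DAPT at both times, the DAPT difference, the RA difference and Notch at 45 min, 5 for dnfgfr1 at 30 min and 2 each for Notch at 90 min and wild type. With a replicate block added they were 0 for DAPT at both times, the DAPT difference, the RA difference, Notch at 45 min and wild type, 2 each for RA for 3 h and Notch at 90 min, and 3 for dnfgfr1 at 30 min. Pairing by array number was inferred from correlations for Notch at 45 min alone. With Notch at 90 min the pairs' correlations lay between 0.0446 and 0.116, and 3 of 4 arrays correlated best with their own number. With DAPT for 3 h the 2 pairs lay between 0.104 and 0.171, and both did so. In each other comparison at most 2 arrays did. The deposited scaling gave 0 for DAPT for 3 h and wild type and 7 for RA for 3 h. Median centring gave 0 for DAPT for 3 h and the DAPT difference and 2 each for the RA difference and dnfgfr1 at 30 min. No filter gave 2 for DAPT for 1.5 h and 0 for wild type, moderation without trend 0 for wild type, and a pseudocount of 1 gave 0 for both. A pseudocount of 64 gave 0 for DAPT for 3 h and the DAPT difference, 2 each for DAPT for 1.5 h, the RA difference and dnfgfr1 at 30 min, and 4 for Notch at 45 min. Without notch1a-intra arrays 2 and 4, but with all gal4 arrays kept, the counts were 9 at 45 min and 1 for the Notch difference. With arrays 1 and 3 only in both 45 min groups, an alternative chosen after seeing the data, the count was 4. The stricter filter moved none of the 17 counts by over 1.5 times. Why the counts moved was not tested.

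With 1 array left out, the counts ranged from 3 to 5 with RA for 1.5 h, 1 to 3 for 3 h and 0 to 2 for the RA difference. They ranged from 1 to 2 with dnfgfr1 at 30 min, 2 to 4 at 1 h and 0 to 0 for the difference. The ranges were 5 to 6 with the DeltaTcf label, 8 to 9 with dkk1, 4 to 6 with wnt8a and 3 to 3 between dkk1 and wnt8a. They were 2 to 5 with Notch at 45 min, 2 to 4 at 90 min and 0 to 0 for the difference, 0 to 2 with DAPT for 1.5 h, 0 to 4 for 3 h, 0 to 2 for the difference, and 0 to 1 in wild type. Over all probe sets the counts moved too: with array quality weights from 414 to 2651 for Notch at 45 min, from 70 to 1341 for the Notch difference, from 442 to 1049 in wild type, from 439 to 1068 for RA for 1.5 h and from 304 to 861 for dnfgfr1 at 30 min, and with the groups alone from 414 to 7 for DAPT for 1.5 h, from 696 to 329 for Notch at 90 min and from 414 to 61 for Notch at 45 min. The highest and lowest counts for DAPT for 3 h, which has 2 treated arrays, were 806 and 35 beside 542.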
